A study of Mus musculus with 40 samples.

Results

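The nuclear genes for subunits of oxidative phosphorylation (OXPHOS) were followed in liver RNA sequencing data from 40 male mice. They were taken from the count tables by symbol, as protein-coding genes that begin with Nduf and the letter a, b, c, s or v and a digit (complex I), Sdha to Sdhd (complex II), Uqcr (complex III), Cox4 to Cox8 (complex IV) or Atp5 (complex V), and that reached 1 CPM (counts scaled to library size) in 5 of the 40 mice. Of 84 genes with such symbols, 78 passed this threshold, among 12942 genes tested. Complex I had 37 of 37, complex II 4 of 4, complex III 8 of 8, complex IV 12 of 18 and complex V 17 of 17. The 6 genes below the threshold were all isoforms of complex IV, namely Cox4i2, Cox6a2, Cox6b2 and Cox8b at low counts and Cox7b2 and Cox8c with 0 counts in all 40 mice.

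Wild-type (WT) mice were C57BL6/J, and knockout (KO) mice lacked PPARγ in the liver, through an Albumin-Cre transgene that recombines a loxP-flanked PPARγ gene in hepatocytes and leaves the gene in other liver cells. Each genotype had 4 groups of 5 mice, given control diet (control), control diet with pioglitazone (Pio), high-fat diet (HFD) or high-fat diet with pioglitazone (HFD-Pio) from 2 to 5 months of age. Pioglitazone, a thiazolidinedione agonist of PPARγ, made up 0.01% of the supplemented diets, and fat provided 60% of the calories of the HFD. WT and KO mice came in separate tables, and a difference of genotype cannot be told apart from one of table. Levels in WT and KO mice were therefore not tested against each other. In whole liver, fewer cells of a type and less RNA per cell cannot be told apart either.

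Mitochondria make most of the ATP of a liver cell by OXPHOS. Complex I (NADH dehydrogenase) and complex II (succinate dehydrogenase, also an enzyme of the TCA cycle) pass electrons to coenzyme Q, complex III (cytochrome bc1) passes them to cytochrome c, and complex IV (cytochrome c oxidase) to oxygen. Complex V (ATP synthase) uses the proton gradient that complexes I, III and IV build. Complexes I, III, IV and V combine subunits from nuclear and mitochondrial DNA, while complex II is encoded by nuclear genes alone. The coactivators Ppargc1a and Ppargc1b and the factors Nrf1, Gabpa and Esrra are known activators of many of these genes.

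WT libraries held 15788242 to 49857017 counts and KO libraries 21542958 to 28334251, of which the OXPHOS genes took 0.608% to 1.45%. Pparg, the gene targeted in KO mice, had 5.79 to 14.2 CPM in WT and 3.01 to 9.90 CPM in KO mice. A gene total can hold reads from exons outside the deleted part and from other liver cells, and so does not measure the deletion. All 6 hepatocyte markers were above 0 in every mouse and summed to 32211 to 148087 CPM. The summed kidney markers stayed at no more than 0.127 CPM, but markers of other tissues were present in the KO HFD group. Summed pancreatic acinar markers reached 491 CPM there (group median 23.8) and summed skeletal muscle markers 20.6 CPM (group median 0.433). KO HFD mouse 9 was not the source, with 5.55 and 0.433 CPM. The part of such tissue in the OXPHOS values of that group was not tested. A gene is called here at a Benjamini-Hochberg adjusted p of at most 0.05 over all 12942 genes in edgeR's quasi-likelihood test, fold changes are on the log2 scale with standard errors (SE), and group values are TMM-normalized CPM as mean ± SD (n = 5 mice). Counts at an unadjusted p under 0.05 are given below without the share of all genes, except for Pio on control diet in WT mice. Without that share they do not show whether the module differs from other genes.

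In every complex but II, levels per length differed more between members than between the medians of the complexes. In WT control mice the median member had 37.2 CPM per kb of exon in complex I, 87.2 in complex II, 88.9 in complex III, 65.5 in complex IV and 23.1 in complex V. In KO control mice the medians were 39.2, 92.8, 77.8, 55.9 and 31.4 CPM per kb in the same order. The 4 genes of complex II lay closest together, from Sdhc, a membrane anchor, at 56.6 to Sdha, the flavoprotein, at 108 CPM per kb in WT control mice, a 1.90-fold range. Complex V was the most spread, from Atp5g2, one of the genes for the ring subunit c, at 0.779 to Atp5a1, the alpha subunit, at 310 CPM per kb. Exon lengths are unions over all annotated transcripts, which lowers the value of genes with long unused exons, and reads that also align to a processed pseudogene are not in the counts.

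**Figure D1:**
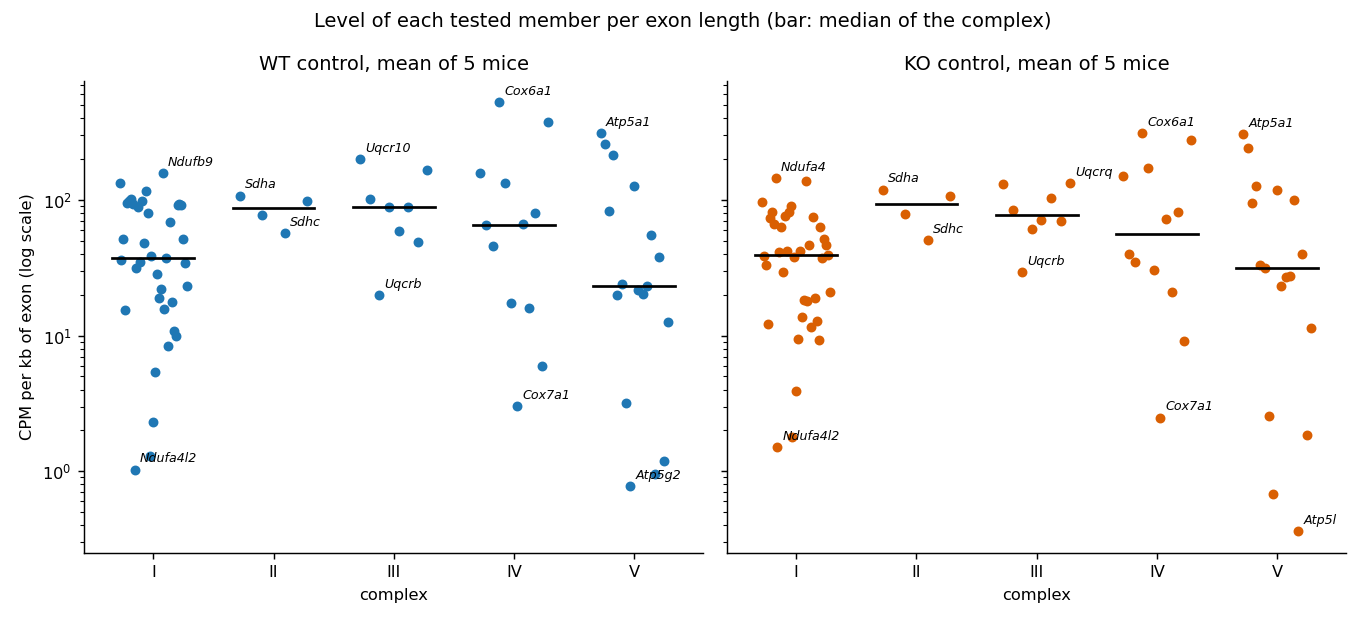
Level of each OXPHOS gene in control-diet mice, in CPM per kb of exon on a log axis, grouped by complex for WT and KO mice, with each point the mean of 5 mice for 1 gene and the bar the median of the complex. Complexes II and III have the highest medians in both genotypes (87.2 and 88.9 CPM per kb in WT control mice).

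For subunits with tissue isoforms, the form known from liver held nearly all of the CPM per kb of its family. Shares here are of CPM per kb of exon, not of reads, and so depend on the exon lengths used. Cox6a1 made up 99.98% of Cox6a1 and Cox6a2 together (median of 40 mice) and Cox8a 99.96% of Cox8a and Cox8b. Cox4i1 made up 99.9% of the Cox4i pair and Cox6b1 99.8% of the Cox6b pair. Cox7a2 held 96.4% (92.5% to 98.2%) and its heart and muscle form Cox7a1 3.60%. Of the 3 genes for subunit c, Atp5g3 held 97.4%, Atp5g1 1.97% and Atp5g2 0.491%. Ndufa4 carries a complex I symbol but is known as a subunit of complex IV. It held 98.9% of the sum of itself and its hypoxia-inducible relative Ndufa4l2, with a lowest share of 76%. Of the isoform genes below the threshold, the highest share in any mouse was 0.802%, for Cox6b2.

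Some libraries stood apart over these genes, and the OXPHOS results that rest on one of them are given without it as well. WT control mouse 832 was lower than all 4 other WT control mice in 75 of the 78 genes, with a median deviation of -1.28 on the log2 scale over all 78, and its complex means were all below the other 4 (complex IV 4.65 against 5.97 to 6.18 mean log2 CPM). In that library the shortest 10% of all genes had a median deviation of -0.60 and the longest 10% 0.22. Its endothelial and stellate marker sum was 562 CPM against 199 to 247 in the other 4, its cholangiocyte sum 45.3 against 16.3 to 28.1, and its hepatocyte sum 69299 against 80475 to 122890. Ndufa1, an accessory subunit of complex I, had 11.3 CPM there against 60.5 to 76.3 in the other 4, whereas Sdha had 417 CPM against 340 to 543.

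KO Pio mouse 13 stood apart in both directions, with 42 OXPHOS genes below and 32 above all 4 other KO Pio mice. Cox7a2 had 5.28 CPM against 66.6 to 70.3 and Ndufa1 3.94 against 35.5 to 44.5, whereas Cox8a had 1229 CPM against 145 to 192 and Cox6a1 1335 against 192 to 230. Over all genes its median absolute deviation was 1.41 on the log2 scale, and over the OXPHOS genes it was 1.76. Its hepatocyte marker sum was 32211 CPM against 93183 to 122092 in the other 4 and its cholangiocyte sum 73.1 against 14.4 to 19.5.

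WT HFD mouse 829 was below the other 4 WT HFD mice in 50 of the 78 genes, with a median deviation of -0.46 over all 78, and above them in 9. Sdhc had 666 CPM there against 181 to 216, and Ndufc1, a small accessory subunit of complex I, 2.68 against 19.0 to 32.9. Its cholangiocyte sum was 64.4 CPM against 23.3 to 31.2 and its hepatocyte sum 98602 against 110918 to 148087. WT Pio mouse 845 was below its group in 59 genes, KO HFD mouse 9 in 69 and KO control mouse 5 in 69, with median deviations of -0.47, -0.42 and -0.20. In KO HFD mouse 9 the summed macrophage markers were at 953 CPM against 419 to 514 in the other 4, the endothelial and stellate markers at 432 against 303 to 325, and the hepatocyte markers at 65363 against 91044 to 97217. In all 6 of these mice the summed cholangiocyte markers were above those of the other 4 mice of the group. That sum was mostly Sox9, at up to 62.6 CPM, while Krt19, Krt7 and Epcam reached no more than 4.54 CPM. Other lists did not share 1 direction. In KO Pio mouse 13 the endothelial and stellate sum was lower, at 183 CPM against 274 to 406, as was the macrophage sum, at 242 against 370 to 526. In WT HFD mouse 829 the endothelial and stellate sum (184) was within the range of the others (175 to 307). WT HFD-Pio mouse 840 was below its group in 62 genes and above it in 2, with a median deviation of -0.33. It is covered by the fits that left out each mouse in turn. The part of cell composition and of RNA quality in these deviations was not tested. The pooled SD within groups was 0.470 on the log2 scale for the median OXPHOS gene over all mice and 0.227 without mice 832, 829 and 13, a choice made after seeing the data. Without these 3 mice it was 0.277 in WT and 0.159 in KO mice. The edgeR fit shares the spread of a gene over both genotypes, so KO comparisons were not tested against the KO spread alone.

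**Figure D2:**
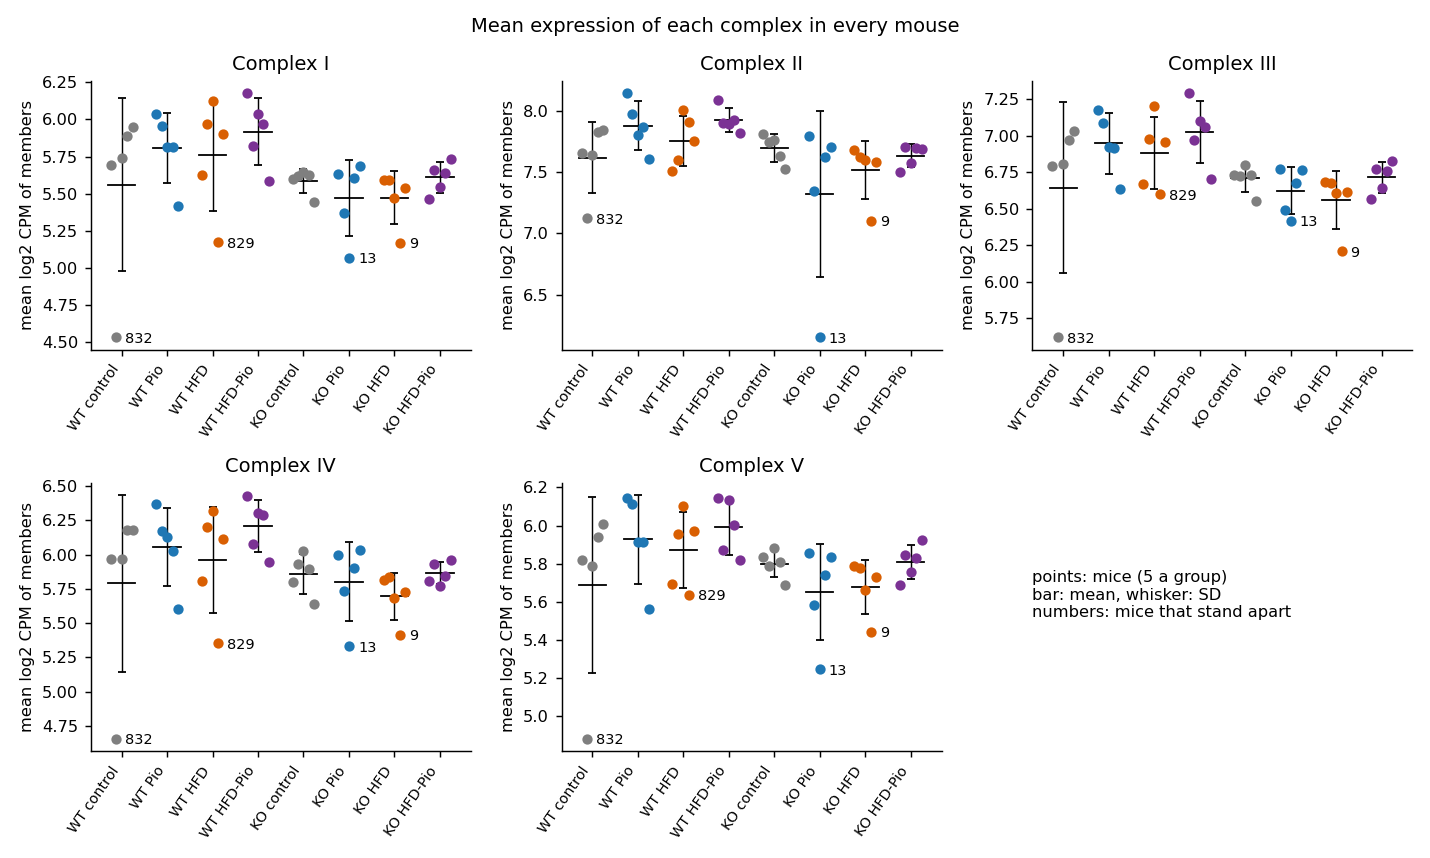
Mean log2 CPM (prior count 2) over the members of each complex, with 1 point for each of the 40 mice, in panels by complex and columns by group, with the mean as a bar and the SD as a whisker (n = 5). WT control mouse 832 is the lowest of its group in all 5 complexes, and KO Pio mouse 13 is the lowest KO Pio mouse in all 5.

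Pio given with control diet raised 1 OXPHOS gene in WT mice by edgeR, Atp5k, out of 78, where 3.91% of all genes were called. Limma with sample weights called more of these genes, in both directions, as given at the end. Atp5k (ENSMUSG00000050856, chromosome 5, 108433244 to 108434448 of GRCm38) encodes subunit e of ATP synthase, which helps the enzyme form dimers in the inner membrane. It had 22.6, 14.0, 31.5, 45.1 and 56.0 CPM in the WT control mice and 85.5, 97.5, 82.3, 74.9 and 53.8 CPM in the WT Pio mice. Only Pio mouse 845 fell within the range of the controls. The means were 33.8 ± 16.9 and 78.8 ± 16.2 CPM, a log2 fold change of 1.22 (SE 0.34, adjusted p = 0.0361 in edgeR), and the exact permutation test of 5 against 5 gave p = 0.0159, two-sided. The call was lost without WT control mouse 831, 832 or 833 or WT Pio mouse 842, 843 or 844, with values of 1.03 to 1.48 and adjusted p of 0.0025 to 0.10 over all 40 edgeR fits that left out 1 mouse.

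Without a call, 2 further genes had every WT Pio mouse above every WT control mouse, where 4.5% of all genes did so, and none had every Pio mouse below, where 3.03% of all genes did. Cox7a2l (ENSMUSG00000024248, chromosome 17, 83501918 to 83517330), a relative of Cox7a that helps complexes III and IV join into supercomplexes, had 26.7, 16.3, 25.6, 23.5 and 26.2 CPM in the controls and 34.8, 38.8, 41.0, 35.6 and 36.0 CPM with Pio. Its log2 fold change was 0.65 (SE 0.20, adjusted p = 0.0599 in edgeR), and the exact permutation p was 0.00794, the smallest that 5 against 5 allow. Any gene whose groups do not overlap gets this permutation p, so it restates the separation and is not further support. Atp5s (ENSMUSG00000054894, chromosome 12, 69724950 to 69744660), also known as factor B or Dmac2l and not an integral part of the enzyme's core, had 1.93, 2.91, 2.30, 2.44 and 2.54 CPM in the controls and 3.02, 3.89, 3.32, 3.22 and 3.99 CPM with Pio, or 0.52 (SE 0.21, adjusted p = 0.164 in edgeR, exact permutation p = 0.00794). Without KO Pio mouse 13, which is in neither group but enters the estimate of spread, Cox7a2l (0.67) and Atp5s (0.53) were called beside Atp5k (1.23).

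The promoter windows of these 3 genes are shown because edgeR called their responses to Pio as different between the genotypes (below). They were not a larger share of the OXPHOS genes than the 7.87% called among all genes. The call was lost in 29 (Atp5k), 18 (Cox7a2l) and 5 (Atp5s) of the 40 fits that left out 1 mouse, and the set changed with the tool. Each window runs 5′ to 3′ from 250 bases before to 50 bases after the start that RefSeq gives on GRCm38.p6. Capitals mark matches to the motifs described further below. Atp5k lies at chr5:108434350-108434649, minus strand, Cox7a2l at chr17:83514284-83514583, minus strand, and Atp5s, listed by RefSeq as Dmac2l, at chr12:69724695-69724994, plus strand.
Atp5k: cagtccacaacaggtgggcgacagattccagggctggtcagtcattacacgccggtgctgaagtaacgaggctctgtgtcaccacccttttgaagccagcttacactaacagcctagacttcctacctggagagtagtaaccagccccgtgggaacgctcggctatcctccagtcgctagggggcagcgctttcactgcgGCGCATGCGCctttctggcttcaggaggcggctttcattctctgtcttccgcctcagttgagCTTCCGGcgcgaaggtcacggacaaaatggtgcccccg
Cox7a2l: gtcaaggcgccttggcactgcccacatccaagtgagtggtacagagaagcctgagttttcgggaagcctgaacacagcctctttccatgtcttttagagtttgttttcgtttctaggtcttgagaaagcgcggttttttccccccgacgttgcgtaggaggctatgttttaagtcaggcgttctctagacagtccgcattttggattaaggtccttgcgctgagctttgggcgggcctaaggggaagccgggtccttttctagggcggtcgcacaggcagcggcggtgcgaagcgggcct
Atp5s: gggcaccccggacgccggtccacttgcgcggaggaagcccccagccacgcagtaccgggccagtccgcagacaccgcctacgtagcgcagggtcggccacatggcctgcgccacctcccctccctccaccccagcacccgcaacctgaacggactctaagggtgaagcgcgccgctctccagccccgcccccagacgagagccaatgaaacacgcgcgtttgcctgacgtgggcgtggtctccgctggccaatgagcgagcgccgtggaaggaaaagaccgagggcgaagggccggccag
In Atp5k the capitals at bases 201 to 210 match the NRF1 motif on both strands, and those at bases 263 to 269 match the GABPA motif on the minus strand. Cox7a2l and Atp5s held none of the 4 motifs searched in these windows. The Cox7a2l window lies inside the annotated gene, and the annotated 5′ end at 83517330 was not searched.

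Over the whole module, WT Pio mice lay slightly higher than WT controls, with a median log2 fold change of 0.17 and 58 of 78 genes above 0, where the median of all genes was -0.02 and 47.5% lay above 0. By complex the medians were 0.17 (complex I), 0.25 (II), 0.26 (III), 0.04 (IV) and 0.15 (V). The 7 core subunits of complex I had a median of 0.05 and its 30 accessory subunits 0.19. In each complex the gene with the largest log2 fold change was Ndufb3 in complex I (0.91, adjusted p = 0.139 in edgeR), Sdha in complex II (0.41, adjusted p = 0.429), Uqcrb in complex III (0.70, adjusted p = 0.185), Cox7a2l in complex IV and Atp5k in complex V. Ndufa4 had 189 ± 26.8 CPM with Pio and 129 ± 51.5 CPM without, or 0.56 (adjusted p = 0.280 in edgeR). At an unadjusted p under 0.05, 11 genes were higher and 0 lower, or 14.1% of the module against 17.9% of all genes.

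This module median rested on 1 control. Without WT control mouse 832 it was 0.02, with 42 of 78 genes above 0 and complex medians of -0.02, 0.13, 0.12, -0.12 and 0.00 for complexes I to V. Without WT Pio mouse 845 it was 0.22, with 71 genes above 0. Without KO Pio mouse 13 the pooled spread was smaller and 12 OXPHOS genes were called as higher, where 15.5% of all genes were called. They were Ndufa4, Ndufa5, Ndufa10, Ndufb3, Ndufs1 and Ndufs5 of complex I, Uqcrb of complex III, Cox7a2l of complex IV and Atp5a1, Atp5c1, Atp5k and Atp5s of complex V, from 0.32 for Ndufs1 to 1.23 for Atp5k. With mice 832, 829 and 13 left out together, 8 were higher and 1 lower (Ndufa1, -0.49), where 18.8% of all genes were called. Neither 12 nor 9 of 78 genes was a larger share than among all genes.

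**Figure D3:**
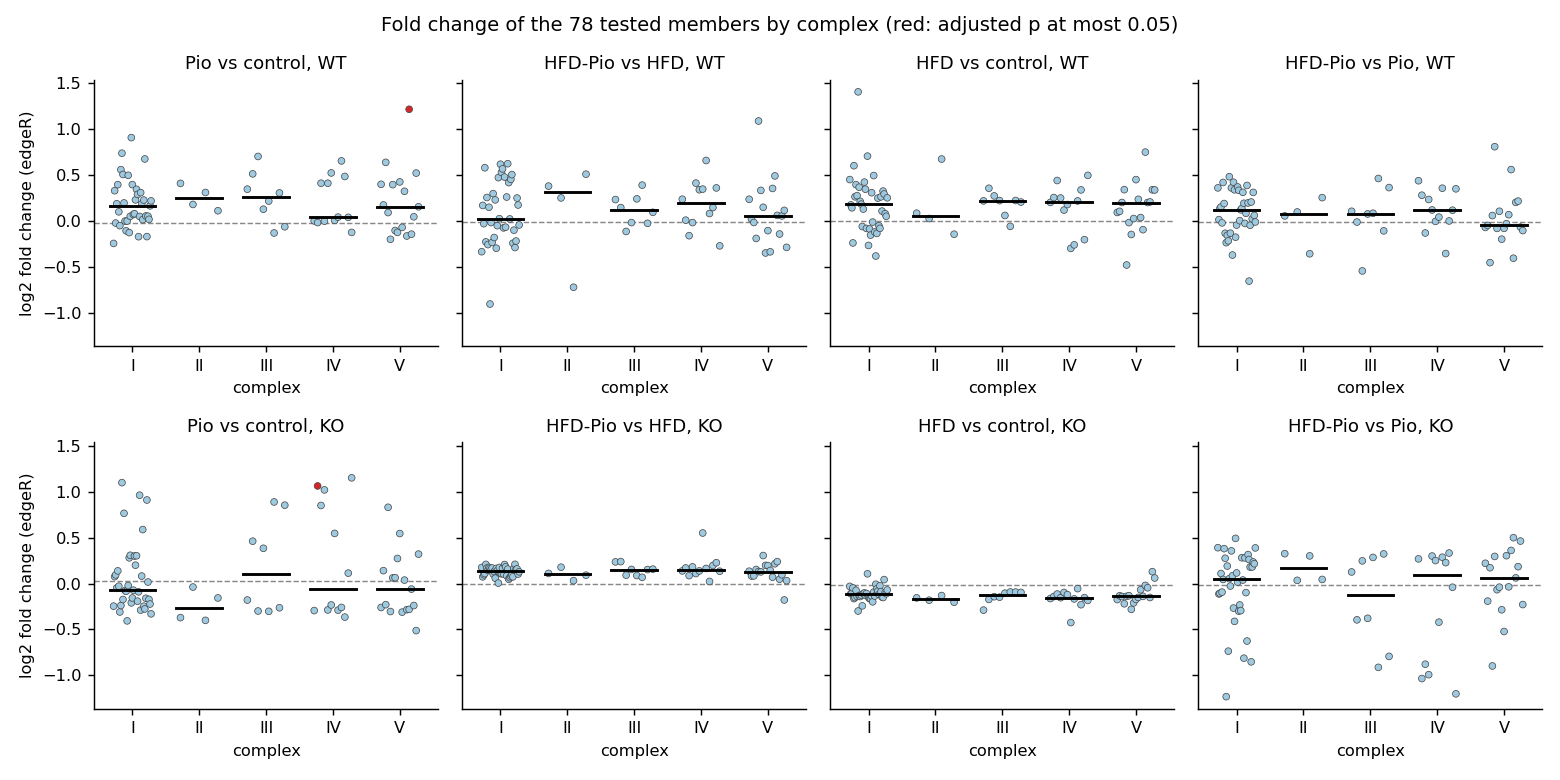
Log2 fold changes of the 78 OXPHOS genes by complex in the 8 comparisons of 2 groups, with 1 point per gene, the bar at the median of the complex, the dashed line at the median of all genes tested and called genes in red. Genes scatter on both sides of 0 in the WT comparisons, whereas 77 of 78 lie above 0 for HFD-Pio against HFD in KO mice and 74 lie below 0 for HFD against control in KO mice.

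On the HFD, Pio called 0 of the 78 genes in WT mice by edgeR, where 1.08% of all genes were called, with 4 higher and 2 lower at an unadjusted p under 0.05. DESeq2 called 1 (2.85% of all genes) and limma with sample weights 9 (8.4%), all as higher. Nonetheless 8 genes had every HFD-Pio mouse above every HFD mouse (3.22% of all genes) and 1 had every HFD-Pio mouse below (3.89%). Atp5e (ENSMUSG00000016252, chromosome 2, 174461072 to 174464105), the epsilon subunit in the central stalk of ATP synthase, had 16.5, 23.3, 24.1, 20.4 and 40.6 CPM on HFD and 70.6, 43.9, 53.3, 51.1 and 46.7 CPM on HFD-Pio. The log2 fold change was 1.09 (SE 0.34, adjusted p = 0.106 in edgeR, exact permutation p = 0.00794). As above, the permutation p follows from the lack of overlap, here and for Ndufs1 and Sdhd below.

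Ndufs1 (ENSMUSG00000025968, chromosome 1, 63143596 to 63176833), the largest core subunit of complex I and an iron-sulfur protein, had 62.2, 57.7, 53.7, 66.0 and 68.7 CPM on HFD and 88.9, 84.8, 80.3, 86.0 and 72.0 CPM on HFD-Pio. Every HFD-Pio mouse was above every HFD mouse, with a log2 fold change of 0.42 (SE 0.24, adjusted p = 0.414 in edgeR, exact permutation p = 0.00794). On control diet its value was 0.31 (adjusted p = 0.554 in edgeR), and the groups overlapped. Eef1b2, which lies on the other strand, overlaps Ndufs1 in the annotation, so reads of the overlap are uncertain. Sdhd, a membrane anchor of complex II, had 88.1, 104, 143, 95 and 112 CPM on HFD and 162, 148, 153, 159 and 152 CPM on HFD-Pio, or 0.51 (adjusted p = 0.273 in edgeR, exact permutation p = 0.00794). The other 5 genes without overlap were Cox7a2 (0.66), Ndufb6 (0.57), Ndufb2 (0.47), Ndufs3 (0.45) and Uqcrfs1 (0.39), while Atp5sl, also known as Dmac2 and tied to complex I assembly, was lower by this measure (-0.29).

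The medians of all 5 complexes were above 0 on the HFD, with 0.03 in complex I, 0.32 in II, 0.12 in III, 0.19 in IV and 0.05 in V, and the module had a median of 0.10 with 47 of 78 genes above 0. Over the 40 edgeR fits that left out 1 mouse, that of complex I ran from -0.04 to 0.23. The ranges were 0.25 to 0.44 for II, 0.03 to 0.29 for III, 0.06 to 0.37 for IV and 0.003 to 0.13 for V. Within complex II, Sdhd, Sdha (0.38) and Sdhb (0.25) were above 0 and Sdhc was at -0.72 (adjusted p = 0.203 in edgeR). HFD mouse 829 had 666 CPM of Sdhc, and without it the value was -0.17 and the module median 0.04. Without KO Pio mouse 13, 9 genes were called as higher where 11.6% of all genes were called, namely Sdhd, Atp5e, Cox7a2, Ndufb2, Ndufb5, Ndufb6, Ndufc2, Ndufs1 and Ndufs3 (0.43 for Ndufs1 to 1.11 for Atp5e). With mice 832, 829 and 13 left out, 4 were called (Ndufs1, Ndufc2, Cox7a2 and Ndufb6, 0.45 to 0.51), where 7.4% of all genes were.

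**Figure D4:**
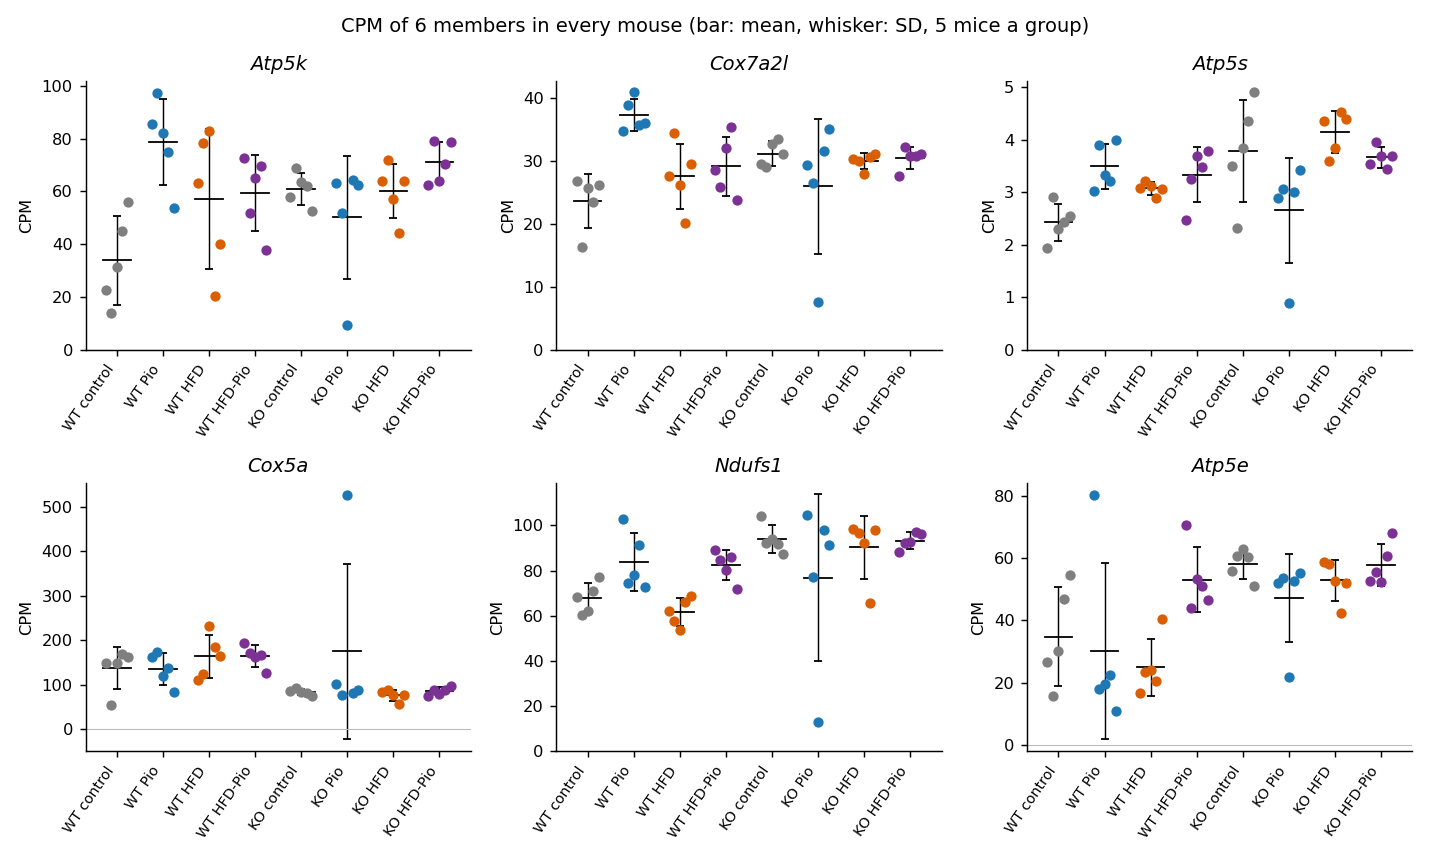
CPM of Atp5k, Cox7a2l, Atp5s, Cox5a, Ndufs1 and Atp5e in each of the 40 mice by group, with the group mean as a bar and the SD as a whisker (n = 5). WT Pio mice lie above WT controls for Cox7a2l and Atp5s, WT HFD-Pio mice lie above WT HFD mice for Ndufs1 and Atp5e, and KO Pio mouse 13 lies apart for Cox5a at 526 CPM.

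A list of 8 adipocyte markers was also followed in WT mice. Their summed level was 1108 to 1940 CPM in WT control and 2662 to 4972 CPM in WT Pio mice. On HFD it was 2939 to 5120 CPM without and 4222 to 5841 CPM with Pio, and these ranges overlapped. Of these 8, 5 passed the threshold, and the defining markers were near 0, with Adipoq at no more than 0.67 and Plin1 at no more than 2.16 CPM in any mouse. The sum was mostly Car3 (median 1369 CPM in WT control mice), which hepatocytes also express. Medians in WT control and WT Pio mice were 1.35 and 232 CPM for Cfd, 8.61 and 88.5 for Cidec and 8.90 and 54.1 for Fabp4. The paper reports Cfd, Cidec and Fabp4 as induced by Pio in WT but not KO livers on control diet. Hepatocyte marker sums overlapped between mice with and without Pio on either diet. The part of cell composition in the OXPHOS values was not tested.

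HFD against control diet called 0 OXPHOS genes in WT mice by edgeR (1.31% of all genes), with 6 higher and 0 lower at an unadjusted p under 0.05, 1 call by DESeq2 (2.98% of all genes) and 0 by limma with sample weights. No gene separated the groups completely, which 1.65% of all genes did as higher and 1.41% as lower. The module median was 0.20, with 0.18, 0.06, 0.22, 0.21 and 0.20 for complexes I to V, and 0.02 without WT control mouse 832. The largest value was that of Ndufa4l2, at 1.41 (SE 0.42, adjusted p = 0.0877 in edgeR). It had 1.74, 0.596, 1.27, 1.11 and 0.922 CPM on control diet and 1.24, 3.98, 1.63, 5.77 and 2.28 CPM on HFD, so that HFD mice 827 and 829 were highest and the groups overlapped.

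In mice that received Pio, HFD against control diet called 0 OXPHOS genes in WT mice by edgeR (1.22% of all genes), with 2 higher and 2 lower at an unadjusted p under 0.05 and 0 calls by DESeq2. With limma and sample weights 22 genes were called, 18 higher and 4 lower, where 22.7% of all genes were. The groups did not separate for any gene, where 2.91% of all genes were higher and 3.59% lower without overlap. The module median was 0.07, and -0.01 without WT Pio mouse 845. Without KO Pio mouse 13, Cox7a2l, Atp5c1, the gamma subunit of ATP synthase, and Ndufs5, an accessory subunit of complex I, were called as lower on HFD-Pio than on Pio, where 8.68% of all genes were called. With mice 832, 829 and 13 left out, 3 genes were called as higher and 4 as lower, where 14.7% of all genes passed.

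In KO mice on control diet, Pio called 1 OXPHOS gene, Cox5a, where 9.01% of all genes were called, and that call came from 1 library. Cox5a (ENSMUSG00000000088, chromosome 9, 57521274 to 57532426), a matrix-side subunit of complex IV, had 85.9, 93.3, 82.1, 80.9 and 74.1 CPM in KO control and 100, 77.3, 526, 81.2 and 86.7 CPM in KO Pio mice, with mouse 13 at 526. The log2 fold change was 1.07 (SE 0.35, adjusted p = 0.0498 in edgeR, exact permutation p = 0.294), and 0.07 without mouse 13 (adjusted p = 0.974 in edgeR). Of 13 genes at an unadjusted p under 0.05, 12 were higher and 1 lower. Cox8a, at 1.15 (adjusted p = 0.0520 in edgeR), was the highest, with 1229 CPM in mouse 13 as given above. None of the 78 genes separated the groups, where 1.61% of all genes were higher and 2.09% lower without overlap.

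The KO Pio medians were -0.07 over the module and -0.07, -0.26, 0.10, -0.06 and -0.06 for complexes I to V, with 33 of 78 genes above 0. Without mouse 13 the module median was -0.00, that of complex II -0.07, and 0 genes were called, where 0.51% of all genes were. Atp5k had 57.9, 68.9, 63.4, 62.0 and 52.8 CPM in KO control and 63.1, 51.9, 9.30, 64.2 and 62.5 CPM in KO Pio mice, or -0.28 (adjusted p = 0.608 in edgeR). Mice 12 and 13 were below the range of the KO controls, and the other 3 KO Pio mice were within it. Cox7a2l had 29.4, 29.0, 32.6, 33.5 and 31.1 CPM in KO control and 29.3, 26.4, 7.63, 31.5 and 35.0 CPM in KO Pio mice, or -0.26 (adjusted p = 0.411 in edgeR).

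Pio with HFD gave 0 calls in KO mice by edgeR (0.0155% of all genes, or 2 genes), 0 OXPHOS genes at an unadjusted p under 0.05, and 0 calls by DESeq2 or limma with sample weights. Of the OXPHOS genes, 77 of 78 were above 0, against 50.2% of all genes, with a median of 0.14 where that of all genes was 0.00. The complex medians were nearly equal, at 0.14, 0.10, 0.15, 0.15 and 0.13 for complexes I to V, and Atp5s (-0.18) was the exception. These genes moved together within a mouse and are not independent. HFD-Pio mouse 16 was below the other 4 of its group in 58 genes, and mouse 20 above them in 52. The mean log2 CPM over the members overlapped between the groups, at 5.47 to 5.89 on HFD and 5.78 to 6.02 on HFD-Pio. Atp5g1, one of the genes for subunit c, had 11.4, 11.1, 10.4, 9.84 and 9.17 CPM on HFD and 12.3, 13.5, 12.6, 12.6 and 13.2 CPM on HFD-Pio, or 0.31 (SE 0.21, adjusted p = 1 in edgeR), and was the only OXPHOS gene with every HFD-Pio mouse above every HFD mouse (0.294% of all genes). No OXPHOS gene had every HFD-Pio mouse below, where 0.317% of all genes did.

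HFD against control diet in KO mice gave the opposite sign, with 74 of 78 genes below 0 and a median of -0.13, or -0.11, -0.17, -0.12, -0.15 and -0.14 by complex. Again 0 genes were called by edgeR (0.185% of all genes), DESeq2 or limma with sample weights, and 0 had an unadjusted p under 0.05. Both comparisons share the KO HFD group, in which mouse 9 was below the other 4 in 69 of 78 genes. That group also held the high pancreatic acinar and skeletal muscle marker sums given above, whose part in these signs was not tested. Mean log2 CPM over the members also overlapped for HFD against control, at 5.47 to 5.89 on HFD and 5.75 to 5.98 on control diet. Without mouse 9 the median was -0.07 for HFD against control, with 11 genes above 0, and 0.07 for HFD-Pio against HFD, with 71 above 0. Atp5o, a stalk subunit of ATP synthase, was the only OXPHOS gene with every KO HFD mouse below every KO control mouse (-0.15, adjusted p = 1.00 in edgeR), where 1.72% of all genes did so and 1.33% were higher without overlap. The 4 genes above 0 were Atp5s (0.13), Ndufb3 (0.11), Atp5sl (0.06) and Ndufs8 (0.04).

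In KO mice given Pio, HFD against control diet called 0 OXPHOS genes by edgeR (4.96% of all genes), 5 by DESeq2 (7.95%) and 1 by limma with sample weights (2.39%), with 1 higher and 12 lower at an unadjusted p under 0.05. The KO Pio group again held mouse 13, and Cox8a (-1.20) and Cox5a (-1.04) were among the 12. The median was 0.06, with 0.05, 0.17, -0.13, 0.10 and 0.06 for complexes I to V, and that of complex III was 0.03 without mouse 13. Atp5s was the only OXPHOS gene without overlap, with 3.43 to 3.96 CPM on HFD-Pio against 0.893 to 3.42 CPM on Pio (0.46, adjusted p = 0.162 in edgeR), where 1.23% of all genes were higher and 1.2% lower in this way.

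**Figure D5:**
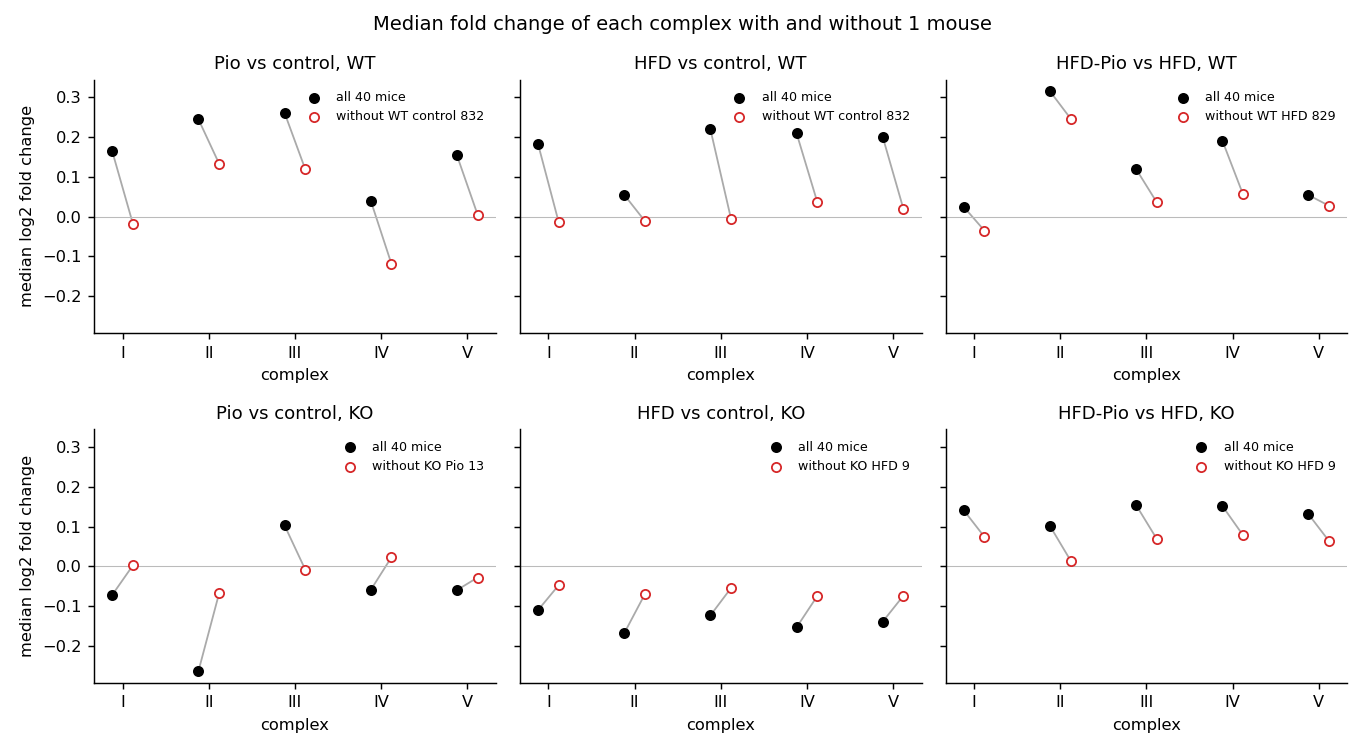
Median log2 fold change of the OXPHOS genes in 6 comparisons, by complex, from all 40 mice (filled points) and without the 1 mouse named in each panel (open points). For Pio against control in WT mice the medians of complexes I and IV move to -0.02 and -0.12 without control mouse 832, and for HFD-Pio against HFD in KO mice all 5 stay above 0 without HFD mouse 9.

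The Pio effects were set against each other by the interaction term, which asks whether a response differs between genotypes or diets. On control diet, 3 OXPHOS genes differed between KO and WT mice, where 7.87% of all genes were called, and all 3 had a lower response in KO mice. These 3 were not a larger share than among all genes. The differences were -1.03 for Atp5s (SE 0.30, adjusted p = 0.0288 in edgeR), -0.91 for Cox7a2l (SE 0.29, adjusted p = 0.0445) and -1.50 for Atp5k (SE 0.48, adjusted p = 0.0478). Cox7a2l and Atp5s were named here after their values were seen. A further 5 genes were higher and 7 lower at an unadjusted p under 0.05, the higher ones being Cox5a, Cox6a1, Cox8a, Ndufs7 and Uqcrfs1.

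Mouse 13, with 9.30 CPM of Atp5k, 7.63 CPM of Cox7a2l and 0.893 CPM of Atp5s, is part of this contrast. Without it Cox7a2l (-0.67) and Atp5s (-0.80) were called and Atp5k was not, where 5.7% of all genes were called. With mice 832, 829 and 13 left out all 3 were called (-0.59, -0.90 and -1.05 for Cox7a2l, Atp5s and Atp5k), where 7.83% of all genes were. The module median of the difference was -0.20, or -0.14, -0.49, -0.29, -0.11 and -0.12 for complexes I to V, against 0.06 over all genes, with 26 of 78 genes above 0. On HFD the same contrast called 0 OXPHOS genes by edgeR (0.0927% of all genes) and DESeq2 and 1 by limma with sample weights (2.74%), with 0 at an unadjusted p under 0.05. The differences there were -0.06 for Cox7a2l (95% interval -0.62 to 0.51), -0.29 for Atp5s (-0.87 to 0.28) and 0.18 for Atp5k (-0.76 to 1.12).

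Between the diets, the Pio effect in WT mice differed for 0 OXPHOS genes by edgeR (0.0773% of all genes) and DESeq2. With limma and sample weights it differed for 13, of which 9 were higher on HFD and 4 lower, where 10.6% of all genes were called. At an unadjusted p under 0.05, 1 gene (Atp5e, 1.29) had a larger response on HFD and 6 a lower one, among them Ndufa4l2 (-1.65), Atp5k (-1.16) and Sdhc (-1.03). With mice 832, 829 and 13 left out, Cox7a2l, Atp5c1, Ndufs5, Ndufb10 and Atp5k (-1.18) were called as lower on HFD, where 4.42% of all genes were called. In KO mice 0 OXPHOS genes were called by any of the 3 tools, 0 had an unadjusted p under 0.05, and 0% of all genes were called by edgeR.

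The promoter windows were searched on both strands for motifs of known activators of these genes. NRF1 was searched as GCGC, A, any base and GCGC, GABPA as CCGGAAG, ESRRA as CA followed by AGGTCA, and the PPAR response element as 2 copies of AGGTCA with 1 base between them. RefSeq windows were matched for 69 of the 84 genes. NRF1 matches were present in 24.6% of these (17 genes) against 5.19% of 27025 genes in the table, GABPA matches in 23.2% (16 genes) against 9.93%, ESRRA matches in 5.8% (4 genes) against 1.76%, and exact PPAR elements in 0 genes against 0.0481%. The windows of OXPHOS genes also had a higher median GC content (57.3% against 52.7%), which bears on GC-rich motifs. NRF1 matches were in 7 of 32 windowed genes of complex I, 2 of 3 of complex II, 1 of 5 of complex III, 1 of 13 of complex IV and 6 of 16 of complex V. Sdhd held NRF1, GABPA and ESRRA matches together. A match is a run of letters and not a measured binding site.

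Other genes of the pathway were followed as lists. Of 41 assembly factors, 1 was called in WT mice for Pio on control diet, Coa3, a complex IV assembly factor, which fell by 0.72 (27.9 ± 6.09 against 46.0 ± 11.9 CPM, adjusted p = 0.0095 in edgeR), and the list median was 0.10. Of 12 regulators, Esrrg, an orphan nuclear receptor, rose by 2.05 (9.59 ± 5.21 against 2.33 ± 1.30 CPM, adjusted p = 0.0161) and Nrf1 fell by 0.40 (11.5 ± 1.21 against 15.3 ± 2.14 CPM, adjusted p = 0.0282). Ppargc1a had 36.3 ± 11.1 against 22.9 ± 6.96 CPM, or 0.66 (adjusted p = 0.239), and Esrra -0.02 (adjusted p = 0.989). Coa3 was also called without mouse 832 (-0.85), 845 (-0.62) or 13 (-0.71) and with mice 832, 829 and 13 left out (-0.85). The call of Esrrg was lost without WT Pio mouse 845 (1.67, adjusted p = 0.0841), and that of Nrf1 without mouse 845 (-0.35, adjusted p = 0.114) or 832 (-0.31, adjusted p = 0.122). Nrf1 encodes the factor NRF1, whose motif matched 17 of the 69 genes with a promoter window, beside 16 for GABPA. A link between the level of Nrf1 RNA and the OXPHOS genes was not tested.

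Of 13 TCA cycle genes, Dlst (264 ± 30.9 against 184 ± 21.7 CPM, 0.52, adjusted p = 0.0297 in edgeR) and Sucla2 (101 ± 9.44 against 75.5 ± 8.60 CPM, 0.41, adjusted p = 0.0232) rose with Pio on control diet in WT mice, and 10 were above 0 with a median of 0.30. The call of Sucla2 was lost without WT Pio mouse 845 (0.39, adjusted p = 0.0763), while Dlst was also called without mouse 832, 845 or 13 (0.53 to 0.58). None of 74 mitochondrial ribosomal protein genes was called there, with 4 higher and 1 lower at an unadjusted p under 0.05 (median 0.02), and of 78 cytosolic ribosomal protein genes 1 was called as higher (median -0.12). Of 5 further subunits and carriers, among them the cytochrome c gene Cycs (0.50, adjusted p = 0.511), 0 were called by edgeR and 0 had an unadjusted p under 0.05. The response of Dlst to Pio was lower in KO than in WT mice on control diet (-0.68), as was that of Cox15 (-0.51), an assembly factor of complex IV, both called by edgeR, and without mouse 13 the values were -0.52 and -0.48, again called.

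The mitochondrially encoded subunits, of which 7 were tested, moved apart from the nuclear ones. All 7 were above 0 for Pio against control in WT mice, with a median of 1.19, and mt-Nd2 (1.62), mt-Nd5 (1.64) and mt-Nd6 (1.90), subunits of complex I, were called. Their mean log2 CPM was 12.72, 12.02, 12.90, 12.75 and 12.52 in WT control and 12.12, 13.77, 13.70, 13.38 and 14.94 in WT Pio mice. Mouse 841 was within the range of the controls, and mouse 845, low for the nuclear genes, was the highest. Without mouse 845 the median was 0.71, all 7 were still above 0 and 0 were called (mt-Nd2 0.88, mt-Nd5 1.06 and mt-Nd6 1.17). For HFD-Pio against Pio, mt-Nd1 (-1.35) and mt-Nd5 (-1.47) were called as lower, and without mouse 845 neither was (-0.85 and -0.89). The Pio effect in KO mice was lower than in WT mice for mt-Nd2 (-1.90), mt-Nd5 (-1.97) and mt-Nd6 (-2.25). In that contrast KO Pio mouse 13 had a mean log2 CPM of 10.06 against 12.47 to 13.16 in the other 4. Without it mt-Nd5 (-1.71) and mt-Nd6 (-1.97) were called and mt-Nd2 (-1.63, adjusted p = 0.0720 in edgeR) was not, and without WT Pio mouse 845 none of the 3 was (-1.15, -1.39 and -1.51 for mt-Nd2, mt-Nd5 and mt-Nd6). Poly-A selection keeps only part of mitochondrial RNA, and its share in these differences was not tested.

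In KO mice on control diet Pio called 2 assembly factors (Cox11 1.48 and Atpaf1 1.13), 2 regulators (Ppargc1b 1.6 and Esrra 1.20), 7 mitochondrial and 5 cytosolic ribosomal protein genes, all as higher, where 9.01% of all genes were called (1003 higher and 163 lower). Without mouse 13, 0 genes of these 4 lists were called, with Cox11 at -0.02, Atpaf1 at 0.09, Ppargc1b at 1.09 (adjusted p = 0.113 in edgeR) and Esrra at -0.01. Esrra had 55.4 ± 71.3 CPM with Pio, an SD larger than the mean. On HFD, Pio called 0 genes of any list in KO mice by edgeR, with 0 at an unadjusted p under 0.05. The positive sign was shared there by 67 of 74 mitochondrial ribosomal protein genes (median 0.07), 61 of 78 cytosolic ones (0.08) and 26 of 41 assembly factors (0.03), beside 77 of 78 OXPHOS genes.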

How the data were processed

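Poly-A RNA from the livers of 40 mice was sequenced. The authors aligned reads to GRCm38 with STAR 2.0.4b and counted unique, unambiguous reads per Ensembl gene with featureCounts 1.4.5 (Subread). The deposited values are whole-number counts, without normalization, and the GC content in percent of each gene in the deposited tables served 1 alternative. The tables were joined by Ensembl identifier (40594 genes), repeated lines were reduced to 1, and 355 rRNA genes were removed. All 40 columns matched a sample.

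Genes that reached 1 CPM in 5 of the 40 mice entered a single edgeR 4.0.16 fit of all 8 groups (TMM, robust quasi-likelihood test, R 4.3.3), and p values were adjusted within each of 12 comparisons. Single genes were also compared by the exact permutation test, two-sided (scipy 1.17.1), on log2 CPM with a prior count of 2. DESeq2 1.42.0, limma 3.58.1 with sample weights (the authors' method), RLE size factors, no filter, each genotype alone, length and GC offsets, and each mouse left out in turn were alternatives. The fits were tested on simulated data. Python 3.11.15, pandas 2.3.3 and matplotlib 3.10.9 were used for tables and plots.

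The module, the gene lists and the tests were chosen with earlier results of these data known. Genes are given with values in each mouse where called, at most 5 of complex I and 3 of each other complex, with the largest fold change in a complex without a call. Ndufs1, Ndufa4, tissue isoforms and the highest and lowest members by level were also named. Sdhd, Atp5sl, Atp5g1, Atp5o and other genes whose groups did not overlap, and genes lost or gained without a mouse, were named after their values were seen. Each sample is a separate mouse, and 1 read was taken as 1 observation.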

Additional observations from a re-analysis of the deposited data

Results flagged for a closer look

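Of 40 tests of a complex in a group of 5 mice (5 complexes in 8 groups), 9 had a lowest mouse whose gap to the next exceeded the Dixon limit of 0.71 of the group's range, where chance gives about 1 in 20. WT control mouse 832 gave 5 of them, with mean log2 CPM of 4.53 for complex I (5.70 to 5.95 in the other 4), 7.12 for complex II (7.64 to 7.84), 5.62 for complex III (6.79 to 7.04), 4.65 for complex IV (5.97 to 6.18) and 4.88 for complex V (5.79 to 6.01). KO HFD mouse 9 gave 2, with 7.10 for complex II (7.58 to 7.68) and 6.21 for complex III (6.6 to 6.69). KO control mouse 5 was at 5.44 for complex I (5.60 to 5.64), and KO Pio mouse 13 at 6.15 for complex II (7.34 to 7.79). All 9 were the lowest of their group, and they concern 4 mice.

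The response to Pio on control diet differed between KO and WT mice by a test of the difference itself for 3 genes, Cox7a2l (-0.91), Atp5k (-1.50) and Atp5s (-1.03), where 7.87% of all genes were called. These 3 were not a larger share of the OXPHOS genes than that. The call was lost in 18 (Cox7a2l), 29 (Atp5k) and 5 (Atp5s) of the 40 fits that left out 1 mouse, and 0 genes were called without a filter on low counts.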

How the results depend on the processing

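No paired analysis was possible because each mouse number belongs to 1 mouse and no number is shared between groups. Of 280 complex medians under other settings, 17 changed sign, as did 23 of 1600 with 1 mouse left out. Those of complexes I and IV for Pio in WT mice were -0.05 and -0.16 with limma and -0.02 and -0.12 with mice 832, 829 and 13 left out. Of the counts of called OXPHOS genes, 32 of 82 moved by over 1.5 times. For Pio on control diet in WT mice (1 gene), the count was 2 with RLE size factors, 0 without a filter and 3 with DESeq2. It was 15 with limma and sample weights, of which Atp5e (-0.97), Ndufa1 (-0.63), Uqcrfs1 (-0.42) and Atp5j2 (-0.58) were lower. It was 4 with each genotype alone and 3 with length and GC offsets. With mice 832, 829 and 13 left out, a choice made after seeing the data, it was 9. For Pio on HFD in WT mice (0 genes) it was 1 with DESeq2, 9 with limma and 4 without the 3 mice. For HFD in WT mice (0) it was 1 with DESeq2, with each genotype alone or with the offsets. For HFD-Pio against Pio in WT mice (0) it was 22 with limma (18 higher, 4 lower), 1 with the offsets and 7 without the 3 mice. For Pio in KO mice on control diet (1) it was 4 with RLE or DESeq2, 0 without a filter, 0 with each genotype alone, 5 with the offsets and 0 without the 3 mice. For HFD-Pio against Pio in KO mice (0) it was 1 with RLE or limma, 5 with DESeq2 and 3 with the offsets. The difference of the Pio effect between diets in WT mice (0) gave 13 with limma and 5 without the 3 mice. That between genotypes gave 0 without a filter, 5 with DESeq2 and 9 with limma on control diet (3), and 1 with limma on HFD (0). The cause of these differences was not tested. Some of these settings have no share of all genes beside the count. Their counts do not show whether the module differs from other genes.

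With each mouse left out in turn, the counts ran from 0 to 12 (Pio, WT), 0 to 9 (Pio on HFD, WT), 0 to 1 (HFD, WT), 0 to 3 (HFD-Pio against Pio, WT), 0 to 11 (Pio, KO), 0 to 10 (HFD-Pio against Pio, KO), 0 to 2 (difference between diets, WT) and 0 to 5 (difference between genotypes on control diet). The highest WT counts came without KO Pio mouse 13. There 15.5% of all genes were called for Pio, 11.6% for Pio on HFD and 8.68% for HFD-Pio against Pio. In KO mice the highest counts for Pio and for HFD-Pio against Pio came from fits that kept mouse 13. With all mice, 9.01% and 4.96% of all genes were called in these 2 comparisons. Shares of all genes in the fits behind the other highest counts are not given. Those counts do not show whether the module differs from other genes. The call of Cox5a was lost in 32 of 40 such fits (0.07 to 1.25), that of Cox7a2l for the genotype difference in 18 (-1.05 to -0.67), that of Atp5k in 29 (-1.76 to -1.22) and that of Atp5s in 5 (-1.17 to -0.80, without WT control mouse 831, WT Pio mouse 842 or 845, or KO control mouse 4 or 5).

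The complex III median was -0.029 for Pio in KO mice and 0.037 for HFD-Pio against Pio in KO mice without the 3 mice (-0.19 to 0.034 with 1 mouse left out, the highest without KO Pio mouse 13), and the complex IV median for Pio in KO mice was 0.18 with the offsets. Single genes that changed sign had values near 0 under the setting named. For HFD-Pio against HFD in WT mice these were Atp5k (-0.15 without the 3 mice, and -0.16 to 0.24 with 1 mouse left out, below 0 without WT HFD mouse 829 or 830 or WT HFD-Pio mouse 836), Cox7a2l (-0.0073 without the 3 mice, and -0.015 to 0.19 with 1 left out, below 0 without mouse 829) and Atp5s (-0.0023 with the offsets), and for HFD in WT mice Sdhc (-0.041 without the 3 mice). For Pio in KO mice they were Atp5d (-0.093 with limma, -0.13 without the 3 mice, -0.11 to 1.02 with 1 left out), Uqcrfs1 (-0.036, -0.075, -0.054 to 1.08), Atp5k (0.0023 with limma, -0.39 to 0.0065 with 1 left out), Cox7a2l (0.044 with limma) and Cox8a (-0.00143 without the 3 mice). For HFD-Pio against Pio in KO mice they were Atp5d (0.018 with limma, 0.056 without the 3 mice, -1.08 to 0.053 with 1 left out) and Uqcrfs1 (0.000422, 0.047, -1.10 to 0.044). Of the fits that left out 1 mouse, the one that changed these signs in KO mice was that without mouse 13.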
